A study of Mus musculus with 8 samples.

Results

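The 34 genes described here carry glucose into the cell, break it down to pyruvate and lactate, and respond to low oxygen. They are 4 glucose and lactate transporters, 16 enzymes of glycolysis, 5 genes that set the fate of pyruvate, 4 genes of the hypoxia-inducible factor (HIF) system and 5 HIF targets, listed by their role in these pathways. They were matched by symbol among the 54532 gene rows of the table, where they take up 35 rows because Aldoa occurs in 2. All 34 symbols passed the filter on low counts, with 16440 rows in all.

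RNA-seq measured polyadenylated RNA in first molar enamel organs of wt C57BL/6 mouse pups that received no treatment. The first group was dissected at P5 (postnatal day 5, the secretory stage, when ameloblasts lay down enamel matrix), and the other at P12 (day 12, the maturation stage, when that matrix is mineralized). Each group has 4 libraries (n = 4), numbered 1, 3, 4 and 5 at P5 and 1 to 4 at P12, and each library pools 5 pups, so that the spread between libraries is a spread between pools. The question for these genes is how the RNA of the glucose and oxygen-sensing pathways differs between the secretory and the maturation enamel organ.

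Glycolysis splits glucose into pyruvate in the cytosol and yields ATP without oxygen. Lactate dehydrogenase turns pyruvate into lactate, which leaves the cell through monocarboxylate transporters, unless pyruvate enters the mitochondrion, a step that pyruvate dehydrogenase kinases restrain. HIF is a pair of transcription factor subunits, of which the alpha subunit is hydroxylated by EGLN enzymes and degraded when oxygen is present. When oxygen is low, the alpha subunit persists, binds hypoxia response elements and raises many genes of glycolysis, which is a control of the protein that RNA counts do not show. Maturation ameloblasts pump ions and take up degraded matrix, and the papillary layer next to them is rich in capillaries.

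The count total of a P5 library was 16574548 to 20262601 and that of a P12 library 17588152 to 22013456. The 20 most abundant genes took 34.1% to 35.7% of them at P5 and 16.8% to 19.0% at P12. The sum over 4 markers of secretory ameloblasts, Amelx among them, was lower at P12 and the sum over 5 markers of maturation ameloblasts, Klk4 among them, was higher, with no overlap. Although the labels call the cells epithelially derived, 6 mesenchyme markers summed to between 735041 and 1065100 normalized counts in every library. Col1a1 and Col1a2 carried most of that sum, Col3a1 and Pdgfrb rose (log2 fold change 3.64 and 1.96), Col1a2 and Pdgfra fell (-0.36 and -0.99), and Col1a1 and Vim were not called. Of 4 epithelium markers Krt14, Krt5 and Epcam rose and Cdh1 fell, and their sum went from between 90040 and 95878 to between 259768 and 324806. Of 9 macrophage and leukocyte markers 6 rose and 0 fell, with sums of 2296 to 2845 at P5 and 3255 to 4169.5 at P12. All 8 endothelial markers rose at P12, and their sum went from between 3722 and 4559 normalized counts to between 7319.6 and 7852. For 6 osteoclast markers, of which 5 rose and Calcr did not pass the filter on low counts, the sum went from between 1402 and 2379 to between 4353 and 10834. All 7 oral mucosa markers rose, from between 559.9 and 1009 to between 4211 in P12 library 4 and 34893 in P12 library 2. The sum over 6 odontoblast and bone markers was 162827 to 215267 normalized counts at P5 and 189487 to 222537 at P12, most of it Dspp. Ibsp and Sp7 rose (log2 fold change 1.77 and 0.43), Dmp1 fell (-0.42), and Dspp, Bglap and Phex were not called. No marker was at 0 in every library, and the part of these tissues in the results below was not tested. In bulk RNA, fewer cells of a type and less RNA per cell cannot be told apart. P12 library 4 and P5 library 5 differed most from the other libraries of their age, and values without them are given where they change a result.

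By edgeR's quasi-likelihood test, 25 of the 34 genes had an adjusted p under 0.05, beside 57.2% of all genes tested. At P12, 22 of them rose and 3 fell, where the background was 28.8% for rises and 28.4% for falls, and 9 genes were not called. The median log2 fold change of the 34 genes was 0.80, beside 0.01 for all genes tested, on TMM-normalized counts. In 21 of the 34 every P12 library lay above every P5 library, an order found in 26.0% of all genes tested, and in 3 every P12 library lay below, an order found in 26.6%. Either order was found in 52.5% of all genes. Of the 22 rises 12 were of at least 1 log2 unit, a size that 11.3% of all genes reached, and none of the 3 falls was as large, a size that 10.2% reached. Scaling by total count alone, which moved the median of all genes to 0.38, gave 29 higher and 1 lower, with 54.0% and 14.2% of all genes called higher and lower. Of the 9 genes not called, Slc2a3, Pfkm, Pfkfb4, Pgam1, Pdk1, Egln1 and Egln3 were called higher under that scaling. Without P12 library 4, and without both it and P5 library 5, 22 genes were higher and 5 lower, Aldoc and Ldhb being the further falls. In wider lists of the same pathways, 107 genes were tested, of which 44 rose (41.1%) and 15 fell (14.0%), or 75 and 9 with total count scaling.

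**Figure D1:**
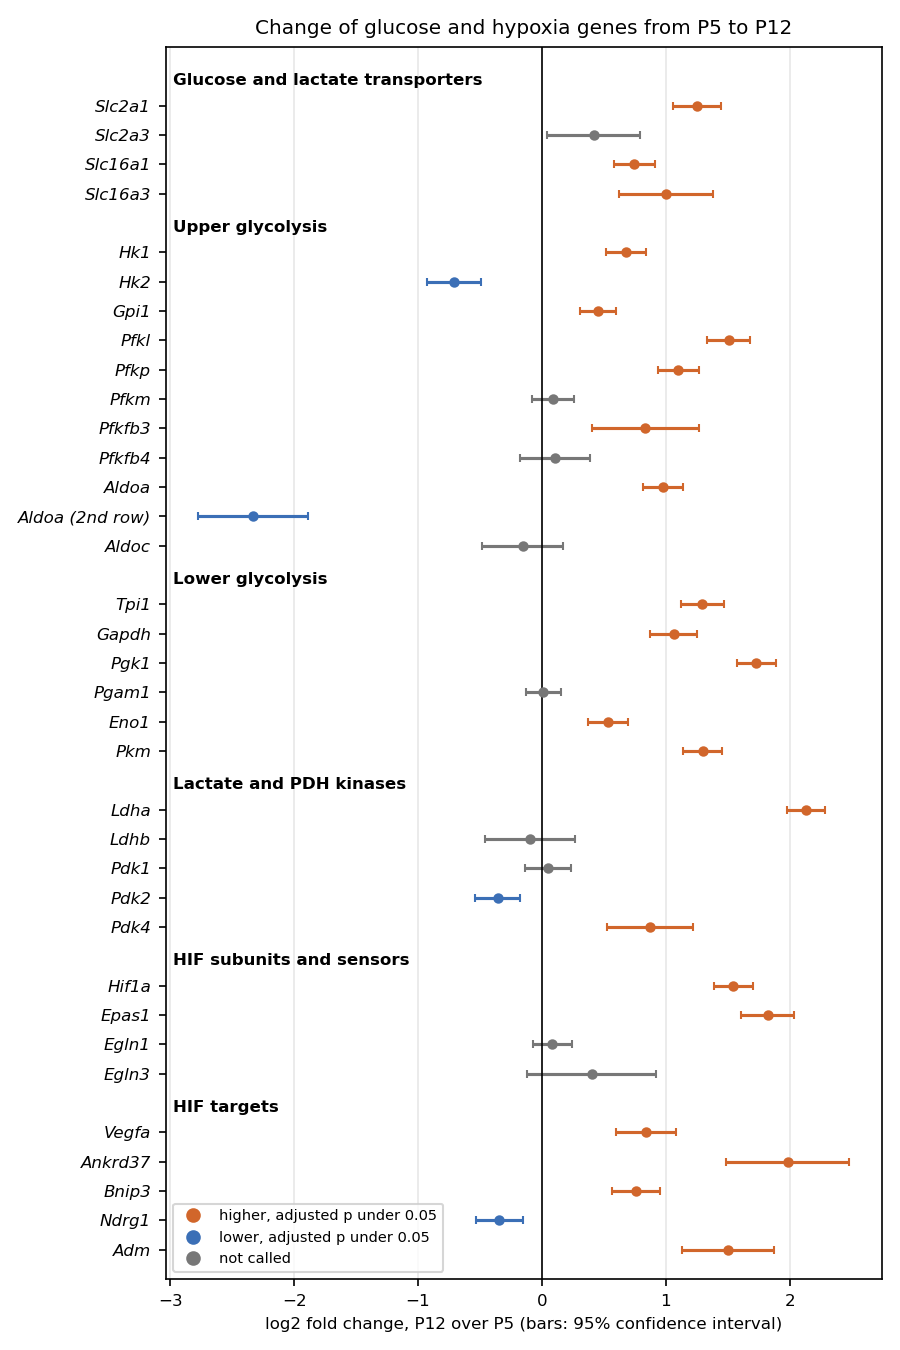
Log2 fold change (P12 over P5) of the 34 genes by role, with 95% confidence intervals from the edgeR fit over 4 libraries per age; a row labelled 2nd is the other Aldoa row. The 22 genes in orange rose, Hk2, Pdk2 and Ndrg1 in blue fell with the second Aldoa row, and Ldha lies farthest to the right at 2.13.

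The sequences upstream of these genes were searched for the site that HIF recognizes. The HIF complex binds the core letters ACGTG or GCGTG, which were searched on both strands in the 250 bases upstream of each RefSeq start site (mouse assembly GRCm38.p6). Capitals mark the core as read on either strand (CACGT and CACGC are its reverse complements). Overlapping matches are merged, and CACGTG, which holds ACGTG on both strands, is also an E-box, the site of other factors. The windows shown belong to 3 of the largest rises (Ldha, Pgk1, Ankrd37), to both hexokinases, of which Hk1 rose and Hk2 fell, and to Pgam1, which was not called. The Ldha and Ankrd37 windows lie inside the gene spans of the table, which begin further upstream.
Ldha, chr7:46845554-46845803, + strand: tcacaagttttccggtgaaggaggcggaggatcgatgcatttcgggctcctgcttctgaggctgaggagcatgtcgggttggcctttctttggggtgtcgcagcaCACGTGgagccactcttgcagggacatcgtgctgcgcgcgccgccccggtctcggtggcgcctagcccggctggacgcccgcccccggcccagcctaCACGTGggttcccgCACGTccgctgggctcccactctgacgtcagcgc
Pgk1, chrX:106186850-106187099, + strand: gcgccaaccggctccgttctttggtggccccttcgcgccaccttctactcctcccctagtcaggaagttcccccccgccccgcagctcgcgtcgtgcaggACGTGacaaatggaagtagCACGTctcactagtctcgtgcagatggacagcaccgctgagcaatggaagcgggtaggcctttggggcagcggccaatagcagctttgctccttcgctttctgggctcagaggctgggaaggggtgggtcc
Ankrd37, chr8:45999851-46000100, - strand: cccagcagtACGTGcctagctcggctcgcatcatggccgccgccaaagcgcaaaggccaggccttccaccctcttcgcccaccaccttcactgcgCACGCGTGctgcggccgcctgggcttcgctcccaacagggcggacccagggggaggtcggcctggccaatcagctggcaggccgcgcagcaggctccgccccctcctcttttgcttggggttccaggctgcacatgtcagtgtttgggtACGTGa
Hk1, chr10:62379909-62380158, - strand: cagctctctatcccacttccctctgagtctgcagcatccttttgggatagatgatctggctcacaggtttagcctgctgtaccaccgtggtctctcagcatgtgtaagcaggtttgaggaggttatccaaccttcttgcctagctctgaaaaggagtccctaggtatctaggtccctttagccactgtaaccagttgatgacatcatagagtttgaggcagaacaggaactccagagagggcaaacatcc
Hk2, chr6:82774455-82774704, - strand: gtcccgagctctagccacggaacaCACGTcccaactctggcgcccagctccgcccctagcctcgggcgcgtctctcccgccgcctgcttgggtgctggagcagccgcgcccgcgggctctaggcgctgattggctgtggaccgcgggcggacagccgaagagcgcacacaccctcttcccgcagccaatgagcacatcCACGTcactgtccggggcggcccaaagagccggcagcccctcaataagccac
Pgam1, chr19:41911621-41911870, + strand: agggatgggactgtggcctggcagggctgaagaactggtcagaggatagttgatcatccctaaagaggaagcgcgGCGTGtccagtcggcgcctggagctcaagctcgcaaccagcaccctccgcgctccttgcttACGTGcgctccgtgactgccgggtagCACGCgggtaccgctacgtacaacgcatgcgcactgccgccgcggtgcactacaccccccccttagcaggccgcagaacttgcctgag

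The Ldha window held 3 core sites, a pair of which are CACGTG, the Ankrd37 window held 3 and the Pgk1 window held 2. Pgam1 held 3 and Hk2 held 2. The Hk1 window shown, at the upstream start of 2, held none, and the window at its other start held 2. A window for at least 1 start site was found for 31 of the 34 genes, all but Slc2a3, Epas1 and Ndrg1. Of these, 29 held a core in at least 1 window (93.5%), beside 59.0% of 11836 genes tested between the ages, and Gpi1 and Tpi1 held none. Counted by window, 80.4% of 46 windows of these genes held a core, beside 38.6% of all 32851 windows. That background by window includes genes that were not tested. Counted by gene, the core was found in 41.5% when those genes were included, less than the 59.0% of genes tested. The core was present in 19 of 21 genes that rose (90.5%) and in 10 of 10 that fell or were not called (100%). Since Gpi1 and Tpi1 alone lacked it, its presence could not separate the genes that rose from the others. A match of 5 letters is a description of the sequence and not a bound site.

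Among the transporters, Slc2a1, Slc16a1 and Slc16a3 rose at P12 and Slc2a3 was not called. Slc2a1 (ENSMUSG00000028645, chr4:119108711-119137983) encodes GLUT1, the basal glucose transporter of many epithelia and of endothelium. Its normalized counts were 1113, 1082, 1229 and 1281 at P5 (in the order of libraries 1, 3, 4 and 5) and 2907, 2908, 3031 and 2355 at P12 (libraries 1 to 4), an order kept throughout. Every P12 library was above every P5 library, and the log2 fold change was 1.25 ± 0.089 (± SE here and below, adjusted p = 5.2e-07). Slc2a3, the high-affinity GLUT3, had 143, 136, 87.0 and 110.1 at P5 and 149, 179.7, 138 and 169.7 at P12, values that overlap (log2 fold change 0.42, 95% interval 0.044 to 0.79, adjusted p = 0.055). DESeq2 put it just past the threshold (adjusted p = 0.042) and so did limma-voom (adjusted p = 0.046). Per kilobase of gene length, Slc2a1 made up 95.3% of the summed level of Slc2a1 and Slc2a3 at P5 and 97.3% at P12. That sum leaves out the other glucose transporters. Among these Slc2a12 had 66.7 per kilobase at P5 and 509 at P12, beside 335 and 799 for Slc2a1.

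The monocarboxylate transporters carry lactate and pyruvate with a proton. Slc16a1 (MCT1), which works in either direction, went from 586, 595, 579 and 562 normalized counts to 934, 997, 1089 and 871 (log2 fold change 0.74 ± 0.076, adjusted p = 8.7e-06). Slc16a3 (MCT4), typical of cells that export lactate, went from 161, 169, 214 and 125 to 339, 356, 386 and 248 (log2 fold change 1.0 ± 0.17, adjusted p = 4.6e-04). Both rose without overlap, and their ratio within a library did not differ beyond its spread (exact permutation p = 0.26 over 70 splits). Among 13 further transporters tested, 2 rose and 2 fell (15.4% each, beside 28.8% and 28.4% of all genes tested). Slc2a12 (GLUT12) rose from 315, 306, 258 and 251 to 2234, 2469.8, 2104 and 1816 (log2 fold change 2.93 ± 0.11, adjusted p = 4.9e-09), and Slc16a7 (MCT2) fell, with 683 to 772 at P5 and 235 to 600.4 at P12 (log2 fold change -0.999 ± 0.24, adjusted p = 0.0040), the highest P12 value being that of library 4. Bsg, the chaperone that brings MCT1 and MCT4 to the membrane, was not called (13714 ± 990.3 at P5 and 13371 ± 704 at P12, 95% interval of the log2 fold change -0.21 to 0.13, adjusted p = 0.71).

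**Figure D2:**
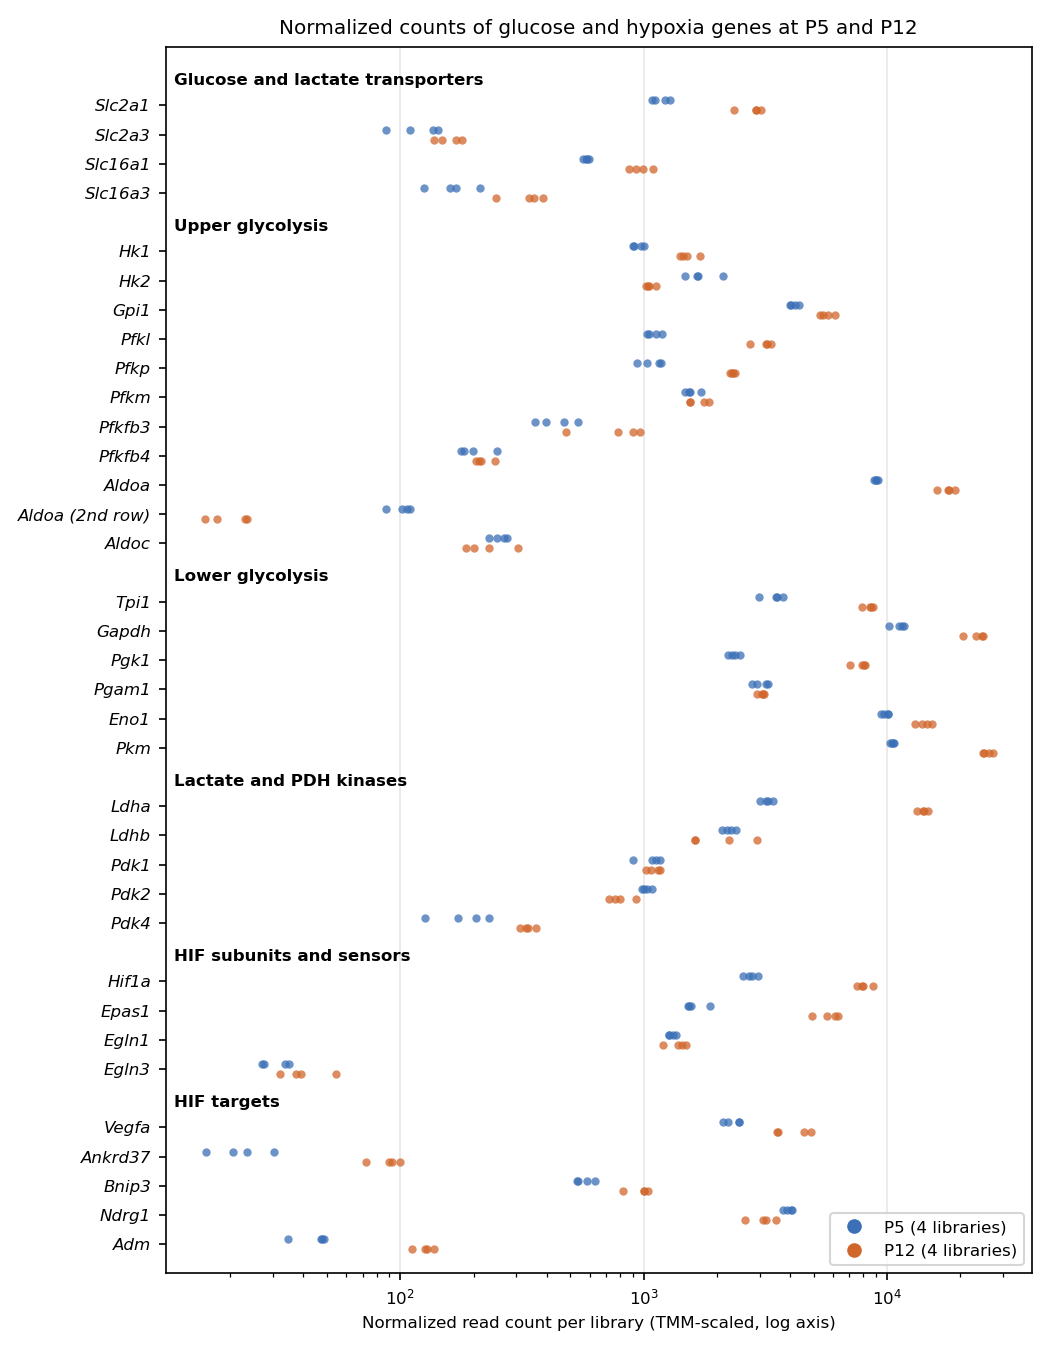
Normalized read counts (TMM-scaled, log axis) of the 34 genes in each of 8 libraries, with P5 in blue and P12 in orange, grouped by role. The P12 points lie to the right of all P5 points in 21 genes, such as Ldha (13242 and more beside 3402 and less), and to the left in Hk2, Pdk2, Ndrg1 and the second Aldoa row.

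In the upper part of glycolysis, where ATP is spent, 6 of 10 genes rose, Hk2 fell and 3 were not called. These rises are 60%, beside 28.8% of all genes tested. Hexokinase traps glucose by phosphorylating it, and its forms changed in opposite directions. Hk1 (chr10:62268855-62379908), the housekeeping form, had 1004, 901, 916 and 974 normalized counts at P5 and 1698, 1502, 1456 and 1408 at P12 (log2 fold change 0.68 ± 0.072, adjusted p = 1.3e-05). Hk2 (chr6:82725025-82774454), the form induced by insulin and by HIF in other tissues, had 1676, 1485, 1654 and 2118 at P5 and 1026, 1052, 1119 and 1044 at P12 (log2 fold change -0.71 ± 0.097, adjusted p = 8.8e-05). Neither gene overlapped between ages. Without P5 library 5, the highest for Hk2, its log2 fold change was -0.60 (adjusted p = 3.7e-05). Within each library the ratio of Hk1 to Hk2 counts was 0.46 to 0.61 at P5 and 1.30 to 1.65 at P12. Its exact two-sided permutation p was 0.0286, the smallest that 70 splits allow. After adjustment over 12 such ratios it was 0.0686 and did not pass 0.05. No ratio can go below that smallest p with these libraries. Here and below, the adjusted value therefore also depends on how many other ratios reach it.

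Per kilobase, the hexokinase total came to 402 ± 48.5 normalized counts at P5 and 355 ± 12.9 at P12 (SD, n = 4), which overlap. Hk2 made up 72.1% ± 2.51 of that total at P5 and 50.0% ± 2.65 at P12. In counts not divided by length, Hk1 was above Hk2 at P12. Totals by step and shares in them, here and below, depend on the deposited gene lengths. They were added after the values were seen and carry no test.

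Gpi1, which turns glucose-6-phosphate into fructose-6-phosphate, rose by a log2 fold change of 0.45 ± 0.066 (3997 to 4363 at P5 and 5314 to 6110.3 at P12, adjusted p = 1.4e-04), and 11.5% of its exonic bases are shared with the noncoding gene Gm26762. Phosphofructokinase commits sugar to glycolysis and has liver, platelet and muscle forms. The liver form Pfkl had 1185, 1049, 1124 and 1036 normalized counts at P5 and 3211, 3348, 3190.4 and 2727 at P12 (log2 fold change 1.51 ± 0.078, adjusted p = 4.5e-08). The platelet form Pfkp rose from 938, 1158, 1036 and 1181 to 2264, 2309, 2326 and 2365 (log2 fold change 1.10 ± 0.075, adjusted p = 3.7e-07). The muscle form Pfkm did not move past the test, with 1550.4, 1727, 1539.7 and 1484 at P5 and 1546, 1544, 1763 and 1857 at P12 (log2 fold change 0.090, 95% interval -0.082 to 0.26, adjusted p = 0.35). Pfkm shares 10.7% of its exonic bases with Gm26513 and with Senp1, which is on the other strand. Per kilobase, Pfkm led at P5 with 65.8% of the phosphofructokinase total, Pfkl had 23.0% and Pfkp 11.2%. At P12 Pfkm had 43.9%, Pfkl 40.9% and Pfkp 15.1%, and the total went from 717 ± 31.1 to 1142 ± 27.7. These shares depend on the deposited gene lengths, 3340 bases for Pfkm, 6675 for Pfkl and 13401 for Pfkp. In counts not divided by length, Pfkm was the highest of these forms at P5 and the lowest at P12. The ratio of Pfkm to Pfkl counts fell from between 1.31 and 1.65 to between 0.46 and 0.68, without overlap (permutation p = 0.0286, adjusted 0.0686). The 10 skeletal muscle markers, of which 3 were higher and 5 lower, summed to 996 to 1668 normalized counts at P5 and 1006 to 1805 at P12, and their part in the Pfkm counts was not tested.

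PFKFB enzymes make fructose-2,6-bisphosphate, the activator of phosphofructokinase. Pfkfb3, a form with high kinase and low phosphatase activity, rose from 357, 397, 535 and 471 to 964, 901, 787 and 478 (log2 fold change 0.83 ± 0.20, adjusted p = 0.0037). It is the only riser among the 34 genes whose ages overlapped, through P12 library 4 alone, and without that library its log2 fold change was 1.005 (adjusted p = 1.5e-05). Pfkfb4 ranged over 177 to 251 at P5 and 204 to 245 at P12 (log2 fold change 0.11, 95% interval -0.18 to 0.39, adjusted p = 0.51). Of the wider family, Pfkfb2 rose (log2 fold change 0.57, adjusted p = 1.4e-04), and so did Tigar, whose product removes fructose-2,6-bisphosphate (log2 fold change 0.71, adjusted p = 0.0019).

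Aldolase cleaves the sugar into a pair of trioses. Aldoa had the highest level per kilobase of the 34 genes at both ages, and rose from 9041, 9039, 9212 and 8806 normalized counts to 16015, 17993, 17849 and 19094 (log2 fold change 0.97 ± 0.074, adjusted p = 8.7e-07). A second row of the same name (ENSMUSG00000114515, chr7:126800790-126809108), which lies just upstream of the first on the same strand, held few counts and moved the other way, from 87.4, 102, 109 and 107 to 23.5, 17.7, 15.8 and 23.1 (log2 fold change -2.33 ± 0.20, adjusted p = 2.3e-06). Aldoc, the brain form, had 231, 275, 266 and 249.8 at P5 and 185, 201, 232 and 304 at P12 (log2 fold change -0.15, adjusted p = 0.40). Without P12 library 4 it was called lower (log2 fold change -0.32, adjusted p = 0.029). Aldoa made up 97.5% of the aldolase total per kilobase at P5 and 98.9% at P12.

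In the lower part of glycolysis, where ATP and NADH are made, 5 of 6 genes rose and Pgam1 alone did not. These rises are 83.3%, beside 28.8% of all genes tested. Pgk1 (chrX:106187100-106203699), phosphoglycerate kinase, makes the first ATP of the pathway and rose most of the 6. It had 2499, 2299.7, 2383 and 2211 normalized counts at P5 and 7055, 8072, 8096 and 7903 at P12 (log2 fold change 1.73 ± 0.071, adjusted p = 8.8e-09). Pkm, pyruvate kinase, which makes the last ATP, went from 10495, 10248, 10708 and 10564 to 24759, 27150.5, 26198 and 25028 (log2 fold change 1.30 ± 0.071, adjusted p = 6.6e-08). Counts per gene do not tell its M1 and M2 splice forms apart, and Pkm shares 15.3% of its exonic bases with Gm49759. Triosephosphate isomerase (Tpi1) rose, with 2991 to 3722 at P5 and 7863 to 8746 at P12 (log2 fold change 1.29 ± 0.079, adjusted p = 1.5e-07). Gapdh, the step that makes NADH and a common reference gene in PCR, had 11769, 11203, 11500.0 and 10167 at P5 and 20593, 24541, 23169.8 and 24860.0 at P12 (log2 fold change 1.06 ± 0.087, adjusted p = 1.5e-06). All P12 libraries exceeded all P5 libraries for Gapdh, a 2.09-fold difference under TMM scaling. Enolase (Eno1) rose less, with 9454 to 10113 at P5 and 13074 to 15275 at P12 (log2 fold change 0.53 ± 0.073, adjusted p = 8.3e-05).

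Pgam1, phosphoglycerate mutase, sits between Pgk1 and Eno1 in the pathway. It had 3178, 2776, 2918 and 3238 normalized counts at P5 and 2927, 3088, 3130.2 and 3065 at P12, which overlap (log2 fold change 0.012, 95% interval -0.13 to 0.16, adjusted p = 0.89). The interval excludes a rise of the size of any of its neighbours in the pathway under this scaling. The muscle paralog Pgam2 was not called either (121 and 104 normalized counts, adjusted p = 0.46), whereas Bpgm, which makes and removes 2,3-bisphosphoglycerate, rose slightly (log2 fold change 0.30, adjusted p = 0.031). Pseudogenes and retrocopies named for these enzymes took at most 0.95% of the count of the parent gene, a share found for Pgam1.

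The order of levels per kilobase changed with these steps. At P5 it ran Aldoa, Gapdh, Pkm, Eno1, Pgam1, Ldhb, Tpi1, Pgk1 and Ldha. At P12 it ran Aldoa, Gapdh, Pkm, Ldha, Pgk1, Tpi1, Eno1 and Pgam1. Aldoa (6093 ± 438 normalized counts per kilobase, SD, n = 4) and Gapdh (5635 ± 470) had overlapping ranges of mean ± SD at P12, as had Pgk1 (1046 ± 54.7) and Ldha (971 ± 48.3) at P5, although in each of those libraries Aldoa was above Gapdh and Pgk1 above Ldha. The 16 glycolytic genes together took 0.276% to 0.285% of all counts in the P5 libraries and 0.674% to 0.736% in the P12 libraries, shares that also depend on the counts taken by the enamel matrix genes at P5.

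Among the pyruvate and lactate genes Ldha had the largest log2 fold change of the 34, Pdk4 rose, Pdk2 fell, and Ldhb and Pdk1 were not called. Ldha (ENSMUSG00000063229, chr7:46841475-46855627) encodes the M subunit of lactate dehydrogenase, the form that favours lactate. It had 3402, 3186, 3251 and 3016 normalized counts at P5 and 13242, 14709, 14089 and 14155 at P12, a 4.37-fold difference with no overlap (log2 fold change 2.13 ± 0.070, adjusted p = 1.9e-09). Ldhb, the H subunit found in tissues that burn lactate, had 2386, 2091, 2286 and 2206 at P5 and 1619, 1618, 2249 and 2928 at P12. Its P12 libraries spread widely, 2 below and 1 above all of P5, and it was not called (log2 fold change -0.093, 95% interval -0.46 to 0.27, adjusted p = 0.65). Without P12 library 4, the highest, it was called lower (log2 fold change -0.30, adjusted p = 0.025). The ratio of Ldha to Ldhb counts was 1.37 to 1.52 in P5 libraries and 4.83 to 9.08 in P12 libraries (permutation p = 0.0286, adjusted 0.0686). Per kilobase, Ldhb made up 59.5% ± 1.09 of the lactate dehydrogenase total at P5 and 23.7% ± 5.18 at P12. Its larger share at P5 depends on the deposited gene lengths, 3310 bases for Ldha and 1570 for Ldhb. In counts not divided by length, Ldha was above Ldhb at both ages. The total per kilobase went from 2399 ± 117 to 5584 ± 461.

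**Figure D3:**
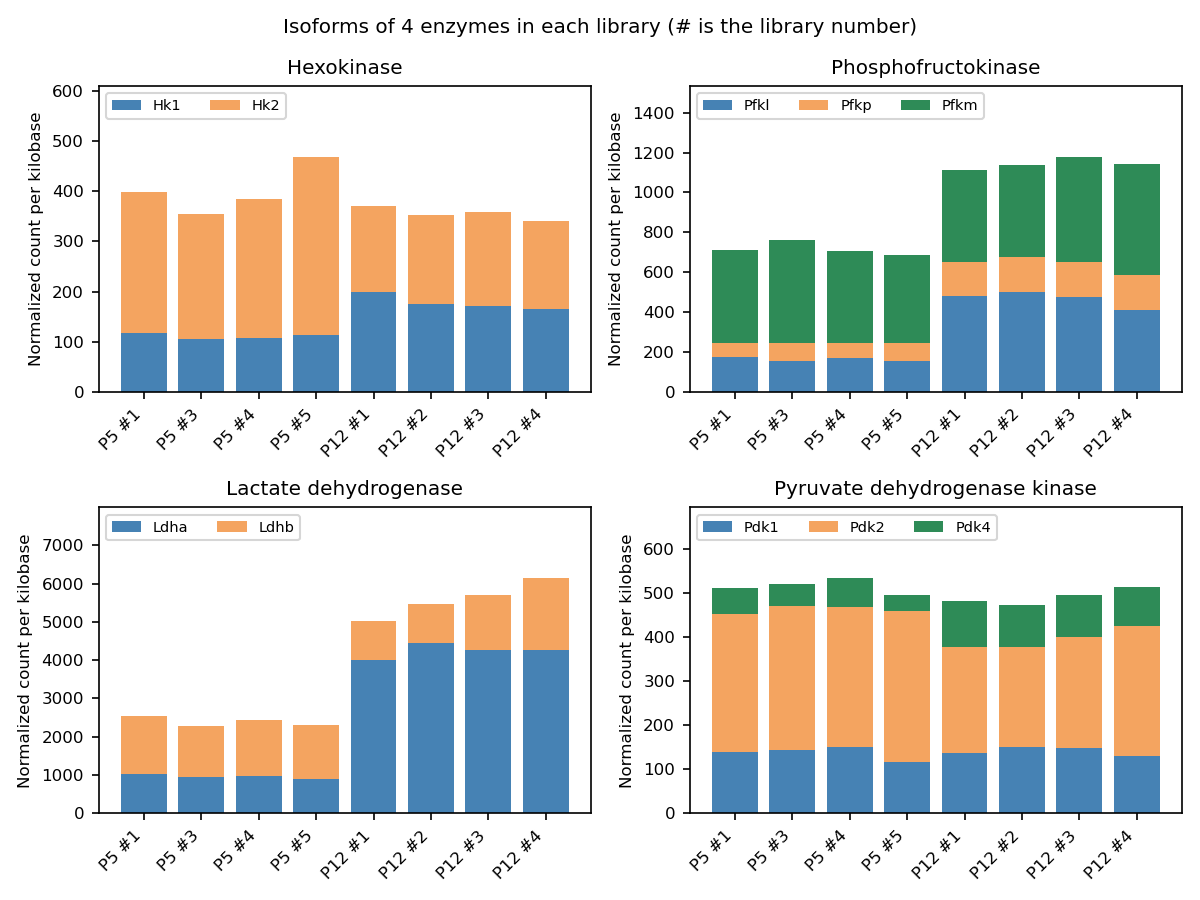
Stacked normalized counts per kilobase of the listed forms of 4 enzymes in each library (# is the library number, bars start at 0), with Pdk3 left out. Hk1 and Hk2 approach each other within a total that stays between 339.9 and 469. On this scale Pfkl joins Pfkm, Ldha overtakes Ldhb, and Pdk4 gains on Pdk2. These orders depend on the gene lengths used, and in counts not divided by length Ldha is above Ldhb at P5 as well.

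The pyruvate dehydrogenase kinases hold pyruvate back from the mitochondrion. Pdk4, the form raised by fasting, fatty acids and glucocorticoids, had 206, 173, 231 and 126 normalized counts at P5 and 362, 335, 329.9 and 311 at P12 (log2 fold change 0.87 ± 0.16, adjusted p = 6.2e-04). Pdk2, the most widespread form, fell from 987, 1034, 1006 and 1083 to 759.6, 719.7, 801 and 931 (log2 fold change -0.36 ± 0.082, adjusted p = 0.0030), a call that was lost with total count scaling (log2 fold change 0.011). Pdk1, a HIF target in other tissues, had 1082, 1121, 1164 and 901 at P5 and 1073, 1168, 1150.0 and 1018 at P12 (95% interval of the log2 fold change -0.14 to 0.23, adjusted p = 0.65). Per kilobase the total of these 3 kinases was 514 ± 16.6 at P5 and 491 ± 17.8 at P12, which overlap. The share of Pdk4 in that total went from 10.1% to 19.5%. Pdk3, from the wider list, is left out of the total and was not called (log2 fold change -0.19, adjusted p = 0.33). It had 328 per kilobase at P5 and 288 at P12, beside 325 and 254 for Pdk2. Of 11 further genes of pyruvate use, 5 rose and 2 fell (45.5% and 18.2%, beside 28.8% and 28.4% of all genes tested). Ldhd, the mitochondrial D-lactate dehydrogenase, rose from 19.3, 30.2, 21.1 and 30.7 to 155, 169, 206 and 178 (log2 fold change 2.78 ± 0.19, adjusted p = 4.0e-07). Of the 5 genes of the pyruvate dehydrogenase complex, Pdha1, Dlat and Pdhx rose by log2 fold changes of 0.44, 0.47 and 0.27 (adjusted p = 0.0013, 0.0059 and 0.015), and Pdhb and Dld were not called (log2 fold change -0.044 and 0.24, adjusted p = 0.67 and 0.12). Malic enzyme Me1 rose by 0.88 (adjusted p = 1.9e-05). The phosphatase Pdp1, which reverses the kinases, fell (log2 fold change -0.64, adjusted p = 3.3e-04), as did pyruvate carboxylase, Pcx (log2 fold change -0.74, adjusted p = 0.0062).

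The HIF alpha subunits Hif1a and Epas1 rose at P12, and the third, Hif3a, and the oxygen sensors were not called. Hif1a (chr12:73901375-73947530) had 2706, 2945, 2799.9 and 2553 normalized counts at P5 and 7507, 8746, 7993 and 7876 at P12 (log2 fold change 1.55 ± 0.073, adjusted p = 2.3e-08). Epas1, which encodes HIF-2alpha and is abundant in endothelium, had 1543, 1524, 1566 and 1881 at P5 and 6116, 6316, 5653 and 4927 at P12 (log2 fold change 1.82 ± 0.097, adjusted p = 5.7e-08). In both genes every P12 library was above every P5 library. Hif3a, from the wider list, was low, with 21.9 to 56.1 at P5 and 14.1 to 42.2 at P12 (log2 fold change -0.55, 95% interval -1.36 to 0.27, adjusted p = 0.23). The ratio of Hif1a to Epas1 within a library overlapped between the ages (permutation p = 0.11). The 8 endothelial markers rose with them, by a median log2 fold change of 0.89 and at most 1.27, and their part in the rise of Epas1 was not tested.

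The EGLN prolyl hydroxylases mark HIF alpha for decay. Egln1 (PHD2), the main form, had 1359, 1317, 1271 and 1268 normalized counts at P5 and 1436, 1494, 1386 and 1206 at P12 (log2 fold change 0.083, 95% interval -0.075 to 0.24, adjusted p = 0.35). Egln3 (PHD3), itself a HIF target, was low, with 27.0, 33.5, 27.7 and 34.9 at P5 and 54.3, 37.1, 38.9 and 32.1 at P12 (log2 fold change 0.40, 95% interval -0.12 to 0.92, adjusted p = 0.17). Its ages overlapped, and it was called higher with total count scaling. Of 14 further HIF regulators, 10 were not called, 2 rose and 2 fell (14.3% each, beside 28.8% and 28.4% of all genes tested). Those not called include the partner Arnt (1579.9 and 1488 normalized counts, adjusted p = 0.24), Egln2, Vhl, which directs HIF alpha to degradation, and Hif1an, which blocks its activity. Cited2, which competes with HIF for its coactivators, rose (log2 fold change 0.64, adjusted p = 2.4e-04), as did Cited4 (log2 fold change 0.35, adjusted p = 0.019). The coactivator Crebbp fell (log2 fold change -0.51, adjusted p = 5.6e-04), and Arnt2 fell from 171, 172, 161 and 237 to 77.0, 91.1, 77.8 and 102 (log2 fold change -1.09 ± 0.16, adjusted p = 1.7e-04).

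Of the 5 HIF targets, Vegfa, Ankrd37, Bnip3 and Adm rose and Ndrg1 fell. Vegfa, the growth factor of vessels, had 2220.2, 2457, 2124 and 2455 normalized counts at P5 and 3569.8, 3541, 4558 and 4893 at P12 (log2 fold change 0.84 ± 0.11, adjusted p = 6.4e-05). Adm, adrenomedullin, a dilator of vessels, went from 47.6, 34.7, 47.5 and 48.7 to 128, 127, 138 and 111 (log2 fold change 1.5 ± 0.17, adjusted p = 1.8e-05). Ankrd37 (chr8:45996902-46005707), an ankyrin repeat gene used as a hypoxia marker, went from 20.6, 23.5, 30.3 and 15.9 to 90.2, 99.6, 92.7 and 72.3 (log2 fold change 1.98 ± 0.23, adjusted p = 2.2e-05). It shares 26.4% of its exonic bases with Ufsp2 and Lrp2bp on the other strand, and no source used here says whether counting used strand. Bnip3, a mitophagy receptor, rose, with 532 to 631 at P5 and 823 to 1039 at P12 (log2 fold change 0.76 ± 0.089, adjusted p = 2.6e-05). It shares 22.3% of its exonic bases with Gm45507 on the other strand, a gene with 0 counts in every library. Ndrg1, a stress and differentiation gene, fell from 3891, 4012, 4068 and 3743 to 3090.3, 3508, 3171 and 2600.4 (log2 fold change -0.34 ± 0.086, adjusted p = 0.0049), and that call was lost with total count scaling (log2 fold change 0.032).

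Receptors for these ligands were taken from a wider list, of which 62.5% rose and 0% fell, beside 28.8% and 28.4% of all genes tested. Of 8, 5 rose, namely Flt1, Kdr, Nrp2, Calcrl and Ramp3, by log2 fold changes of 1.29, 1.07, 1.82, 1.02 and 0.97 in that order, with adjusted p between 4.4e-08 for Nrp2 and 0.0011 for Ramp3. Flt1 and Kdr are the VEGF receptors of endothelium, and Kdr is also among the 8 endothelial markers, all of which rose. Nrp2, a coreceptor, went from 927, 958, 1018 and 1135 to 3771, 3048, 3478 and 3932 normalized counts. Nrp1, Ramp1 and Ramp2 were not called (95% intervals of the log2 fold change -0.085 to 0.31, -0.38 to 0.43 and -0.30 to 0.28).

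**Figure D4:**
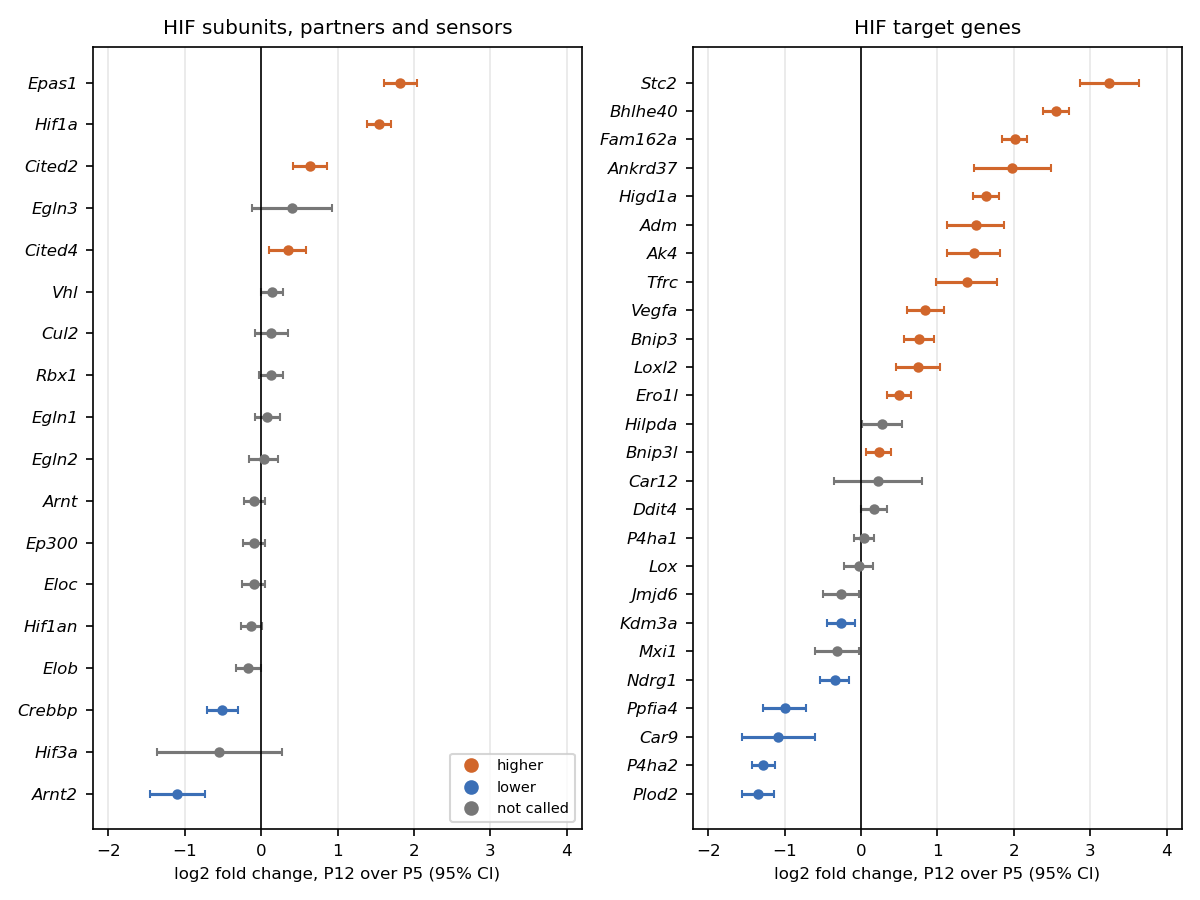
Log2 fold change (P12 over P5) with 95% confidence intervals for HIF subunits, partners and sensors (left) and HIF targets (right), both the listed genes and those of the wider lists. Epas1 and Hif1a stand apart at 1.82 and 1.55 while most sensors and partners lie near 0 and Arnt2 lies lowest at -1.09, and the targets run from Stc2 at 3.25 to Plod2 at -1.35.

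Among 22 further HIF targets tested, 10 rose, 5 fell and 7 were not called (45.5% higher and 22.7% lower, beside 28.8% and 28.4% of all genes). The largest rises were Stc2, a secreted glycoprotein, with 81.0, 70.4, 42.2 and 69.9 normalized counts at P5 and 727, 549, 707 and 534 at P12 (log2 fold change 3.25 ± 0.18, adjusted p = 6.2e-08), and the repressor Bhlhe40, with 748, 649.5, 741 and 665 and 3713, 4299.9, 4171 and 4272 (log2 fold change 2.55 ± 0.077, adjusted p = 1.0e-09). Plod2, a lysyl hydroxylase, fell from 6812, 6592, 7468 and 8302 to 3105, 2941, 2929 and 2495 (log2 fold change -1.35 ± 0.093, adjusted p = 4.0e-07). P4ha2, a prolyl hydroxylase of collagen, fell from 5120.4, 5176, 5174 and 5728 to 2266, 2007, 2289 and 2169 (log2 fold change -1.28 ± 0.068, adjusted p = 5.4e-08). Ppfia4, a liprin, fell from 193, 230.3, 231 and 181 to 110.0, 97.0, 100.1 and 110.4 (log2 fold change -0.998 ± 0.13, adjusted p = 5.1e-05). Car9, the carbonic anhydrase widely used as a hypoxia marker, fell (log2 fold change -1.08, adjusted p = 0.0013). It had 47.5 to 75.1 at P5 and 25.9 to 29.5 at P12, and lies outside the rule of at least 100 normalized counts. Kdm3a fell less (log2 fold change -0.27, adjusted p = 0.017). Fam162a, Higd1a, Ak4 and Tfrc rose by log2 fold changes of 2.01, 1.63, 1.48 and 1.38 (adjusted p between 3.5e-09 and 6.2e-05). Ero1l and Bnip3l rose by 0.50 and 0.23 (adjusted p = 1.4e-04 and 0.019). Loxl2, which crosslinks collagen, rose from 674, 666, 647 and 754 to 1371, 1327, 924 and 954 (log2 fold change 0.74 ± 0.13, adjusted p = 5.3e-04), and the related Lox and the prolyl hydroxylase P4ha1 were not called (log2 fold change -0.032 and 0.041, adjusted p = 0.77 and 0.58).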

How the data were processed

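RNA was taken from first molar enamel organs of wt C57BL/6 pups at P5 and P12, with soft tissue removed from the pulp chamber and 5 pups pooled per library. The authors deposited whole-number read counts per gene, not normalized, with gene lengths and coordinates, and columns were matched to libraries by title. The submitters' processing notes list CASAVA and the build mm39, whereas 53499 of 54409 gene identifiers shared with GENCODE M21 have its GRCm38 coordinates. Coordinates of genes are those of the table and are read as GRCm38. They match GENCODE M21 for 33 of the 35 rows described, and differ for Pgam1 and Epas1. How reads were aligned and counted, whether by strand, and on which annotation is not given in the sources used here.

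Counts were compared between ages in R 4.3.3 with the glmQLFit and glmQLFTest functions of edgeR 4.0.16, after filterByExpr and TMM scaling, with p-values adjusted by Benjamini-Hochberg across 16440 filtered genes and called under 0.05. The study's methods name DESeq2, which was run as an alternative (version 1.42.0), with limma-voom 3.58.1. To normalize, each count was divided by its library's effective size and multiplied by the mean effective size, 19006280, and levels per kilobase use the deposited gene length. Orders and shares of genes per kilobase depend on that length and can differ from those of undivided counts. Ratios of 2 genes within a library (pseudocount 1) went through an exact permutation test (two-sided, 70 splits), adjusted over 12 pairs. No depth limit other than counting applies to the 34 genes, and 3 counts, the most that a count of 0 allows, are 0.136 to 0.181 CPM. Such limits cover counting error only, since reads carried no molecular identifiers.

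Promoter windows are from RefSeq on GRCm38.p6, and RefSeq symbols matched 31 of the 34 genes. Exonic overlaps came from GENCODE M21. Pseudogenes named by Gm numbers could not be assigned to a parent gene. The wider lists hold 120 genes of the same pathways, of which 107 passed the filter. From these, the text names by rule the 5 largest rises and 5 largest falls with a mean of at least 100 normalized counts (1 gene that meets the rule is not reported here), and other genes of the lists were named after their values were seen. The genes and lists were chosen with earlier results of these data known. On simulated counts with 200 changed genes among 16231, edgeR recovered 72% of changes of 1 log2 unit and 97% of changes of 2, with 8 false calls among 177. In the data themselves 57.2% of genes were called. The simulation was not built with that share, or with the shift in the most abundant genes between ages. Its rates therefore do not give those of this comparison. Within each age every pair of libraries (12 in all) showed more than sampling noise (chi-square per degree of freedom 5.04 to 84.9), so none was counted as a duplicate. No source says whether pools came from separate litters, and p-values measure the spread between pools. Python 3.11.15, scipy 1.17.1 and matplotlib 3.10.9 were used for ratios and plots.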

Additional observations from a re-analysis of the deposited data

Results flagged for a closer look

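In 4 cases a library lay far from the other 3 of its age, by the gap between it and its nearest neighbour relative to the range of the group. Such gaps are found by chance in about 1 in 20 groups, which is 4.7 of the 94 groups examined. Epas1 had 1881 normalized counts in P5 library 5, beside 1524 to 1566 in the other P5 libraries. Adm had 34.7 normalized counts in P5 library 3, beside 47.5 to 48.7. The log2 ratio of Slc16a1 to Slc16a3 was 1.81 in P12 library 4, beside 1.46 to 1.49 in the other P12 libraries. The log2 ratio of Pfkfb3 to Pfkfb4 was 1.55 in P5 library 4, beside 0.91 to 1.01. The rises of Epas1 and Adm were called with each of these libraries left out.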

How the results depend on the processing

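Of the 26 called gene rows (the second Aldoa row included), 24 kept their direction and their side of the threshold in all 18 alternative fits. Pdk2 and Ndrg1 lost their calls under total count scaling and came to log2 fold changes of 0.011 and 0.032. That scaling moved the median of all genes to 0.38. It left 1 of the 34 genes lower in place of 3, and in the wider pathway lists it gave 75 higher and 9 lower in place of 44 and 15. A limit of at least 1 log2 unit left 12 of the 34 genes higher and 0 lower (3 of them are lower at an adjusted p under 0.05 by edgeR, by DESeq2 and by limma-voom). In the wider lists it left 16 higher and 5 lower of 107 tested. Of all genes tested, 11.3% were higher and 10.2% lower by that limit. With any single library left out, 22 to 23 of the 34 genes were higher and 3 to 5 lower. The 5 came without P12 library 4, where Aldoc and Ldhb were called lower, and 5 were also lower without both P12 library 4 and P5 library 5, a choice made after seeing the data. Among genes not called, the sign changed for Aldoc under total count scaling (0.21) and for Ldhb (0.27). It also changed with a library left out for Pgam1 (-0.034 to 0.040), Ldhb (-0.30 to 0.012) and Pdk1 (-0.032 to 0.088). For these, the cause was not tested.

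The replicate numbers did not pair the libraries: the 3 same-numbered pairs correlated between -0.036 and 0.045 in their deviations from the age means. With the replicate number as a block over those 6 libraries, 3867 genes were higher and 3843 lower, beside 4076 and 4041 in the same libraries without the block. Of the 34 genes 22 were higher and 3 lower either way, and Pdk1 came to a log2 fold change of -0.056 with the block and -0.056 without it, and Ldhb to 0.0050 without it. The isoform ratios moved by less than the spread between libraries with a pseudocount of 0 or 5 and with any library left out. Counts limit Egln3 and Ankrd37 most, whose lowest counts were 21 and 15.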

Other observations

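Other routes of glucose carbon were measured with the same counts. In the pentose phosphate pathway, which makes NADPH and ribose, 6 of 8 genes rose by edgeR's test and 2 were not called. These rises are 75%, beside 28.8% of all genes tested. Glucose-6-phosphate dehydrogenase, G6pdx, went from a mean of 460.3 to 735 normalized counts (log2 fold change 0.68, adjusted p = 2.1e-04), and Pgd, the next oxidative step, went from 1022 to 1560.1 (0.61, adjusted p = 1.3e-05). The nonoxidative enzymes Tkt and Taldo1 rose by log2 fold changes of 0.43 and 0.38 (adjusted p = 0.0010 and 2.9e-04).

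Of 14 glycogen genes tested, 6 rose and 2 fell (42.9% and 14.3%, beside 28.8% and 28.4% of all genes tested). Among genes that build glycogen, Gys1, Gyg, Gbe1 and Ugp2 rose by log2 fold changes of 0.33, 0.74, 0.60 and 0.63 (adjusted p between 1.2e-05 and 0.0050). Ppp1r3c, which promotes glycogen synthesis, was not called (log2 fold change 0.13, adjusted p = 0.76), and Gys2 did not pass the filter on low counts. Of the 3 phosphorylases, which release glucose units from glycogen, 1 fell, 1 rose and 1 was not called. The brain form Pygb fell from a mean of 2143 to 1126 normalized counts (log2 fold change -0.93, adjusted p = 5.8e-07), and the liver form Pygl rose from 116 to 246 (1.09, adjusted p = 3.9e-04). The muscle form Pygm had means of 46.7 and 44.5 (log2 fold change -0.058, adjusted p = 0.88). Galm, which interconverts the anomers of sugars, rose from 92.7 to 276 (log2 fold change 1.57, adjusted p = 4.5e-06).

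The sodium-glucose cotransporter Slc5a1 did not pass the filter on low counts and was not tested. It had between 0 and 5.14 normalized counts in the P5 libraries. At P12 it had 49.9, 68.3 and 72.3 normalized counts in libraries 1, 2 and 3 and 9.04 in library 4, the library with the lowest sum of oral mucosa markers at P12. The part of that tissue in the Slc5a1 counts was not tested. These genes were chosen after their values were seen.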
